A study of Mus musculus with 6 samples.

Results

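The nuclear receptors for retinoic acid (RA) were examined in mouse neuromesodermal progenitors (NMPs): the 3 retinoic acid receptor genes Rara, Rarb and Rarg and the 3 retinoid X receptor genes Rxra, Rxrb and Rxrg. They were selected by gene symbol, without regard to their values, and make up 6 of the 20631 genes and 19 of the 30352 RefSeq transcripts in the RNA-seq files. There were 6 samples, 2 in each of 3 conditions. NMPs were obtained from embryonic stem cells (ESCs) over 3 days with bFGF and, on the last day, the Wnt pathway agonist CHIR99021. They were then moved to N2B27 medium and held for 2 h in the solvent DMSO alone, 25 nM RA or 1 µM RA, so that bFGF and CHIR99021 treatment was common to all 3 groups. The labels give the strain as 129 R1, whereas the methods describe C57BL/6 ESCs that had been grown on mouse embryonic fibroblast feeders, and neither names an engineered allele. The samples of a pair were separate culture dishes, so that the errors given here cover differences between dishes and not between independent differentiations.

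RA acts by binding RARs, which occupy DNA as heterodimers with RXRs at RA response elements, usually as a direct repeat of a hexamer. Without ligand the heterodimer recruits corepressors, and with ligand it recruits coactivators. Genes for RA-degrading enzymes and some of the receptors themselves are classical RA targets, and Rarg is the RAR known for its expression in the primitive streak and caudal embryo.

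The depth was 31753556 to 42029348 estimated counts per sample. All 7 NMP markers had a mean of more than 1 RPKM (reads scaled by transcript length and by the depth of the sample), with T, the brachyury gene, at 367 to 380 RPKM and Sox2 at 5.20 to 17.3 RPKM. They summed to 503 and 491 RPKM in the DMSO samples and to 543 to 565 RPKM in the RA samples, and Sox2 rose with RA by 1.56 and 1.64 on the log2 scale (adjusted p = 2.4e-100 and 3.1e-112). Nkx1-2, Cdx1 and Wnt3a also rose at both doses, and Cdx2 at 25 nM only. Fgf8 of the same list fell, with log2 fold changes of -0.22 and -0.26 (likelihood ratio test, adjusted p = 0.0037 and 7.7e-05). T, which made up most of the sum, had log2 fold changes of -0.005 and -0.027 (adjusted p = 0.98 and 0.77). Pou5f1, a pluripotency gene that is also expressed in the epiblast, was at 432 to 470 RPKM. Summed RPKM of the 4 presomitic mesoderm markers was 37.8 to 38.1 with DMSO, 26.3 to 29.2 at 25 nM and 21.5 to 23.3 at 1 µM, while the 4 endoderm markers summed to 46.0 to 47.8 with DMSO and 33.9 to 35.5 with RA. Msgn1, at 14.1 to 27.8 RPKM, made up most of the presomitic mesoderm sum, whereas Meox1 of the same list, at 0.0967 to 0.834 RPKM, rose by 1.91 and 2.68 (adjusted p = 9.8e-06 and 1.0e-13). The 5 fibroblast feeder markers summed to 5.11 to 6.11, the 4 committed neural markers to 5.11 to 5.67 and the 5 pluripotency markers to 459 to 495, and no marker was at 0 in all samples. Irx3, at 4.82 to 5.37 RPKM, made up most of the neural sum. Sox1 was at 0.180 to 0.245 RPKM, Pax6 at 0.0484 to 0.0885 RPKM and Neurog2 at 0.0205 to 0.0653 RPKM. Pou5f1 made up most of the pluripotency sum, and Esrrb and Klf4 lay between 0.388 and 0.614 RPKM. In bulk RNA, fewer cells of a type and less RNA per cell cannot be told apart, and the part of these markers in the receptor results was not tested.

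The DNA upstream of receptor start sites was inspected first. RefSeq (GRCm38.p6) gave 300-base windows for 13 annotated starts of the 6 genes, each with 250 bases before and 50 after the start. Of the 4 Rara windows, those of the starts at chr11:98937696 and chr11:98937718 overlap. Another, at chr11:98964872, lies 4401 bases from the start of NM_001176528, the nearest Rara transcript measured. The table used gave none for the Rara start at chr11:98960471, the Rxra start at chr2:27710583 or the distal Rarb start at chr14:17082331, which were not searched here. The 13 windows were searched on both strands for 2 hexamers, each AGGTCA or one of its variants (the form AGTTCA, the form GGGTCA and the form GGTTCA), as a direct repeat with a spacer of 5 bases (DR5), 2 bases (DR2) or 1 base (DR1). Of 32851 such windows over all genes, 0.0974% held a DR5, 0.268% a DR2 and 0.222% a DR1, while 43.7% held at least 1 single hexamer. Among the 13 windows only that of Rarb held any of the 3 repeats. This was a DR5, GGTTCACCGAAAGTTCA, at chr14:16575513-16575529 on the strand of the gene, from position -53 to -37 relative to the RefSeq start at 16575476. GENCODE places the start of its Rarb transcript at 16575543, upstream of the DR5. Cyp26a1, which encodes the main RA-degrading enzyme of the early embryo, was the only other gene of the pathway lists below with a DR5, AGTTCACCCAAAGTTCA, on the opposite strand from -32 to -16. The 250 bases upstream of the Rarb and Cyp26a1 starts are shown for this shared element, with the DR5 in capitals, beside those of the main Rarg start and the first Rara start, which held none of the 3 repeats. These matches are descriptions of sequence, and binding was not measured.
Rarb, chr14:16575477-16575726, minus strand: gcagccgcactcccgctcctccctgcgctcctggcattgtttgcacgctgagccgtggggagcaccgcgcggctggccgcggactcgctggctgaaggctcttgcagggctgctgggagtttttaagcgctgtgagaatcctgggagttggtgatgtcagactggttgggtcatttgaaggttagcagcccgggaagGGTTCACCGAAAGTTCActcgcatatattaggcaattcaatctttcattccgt
Cyp26a1, chr19:37697558-37697807, plus strand: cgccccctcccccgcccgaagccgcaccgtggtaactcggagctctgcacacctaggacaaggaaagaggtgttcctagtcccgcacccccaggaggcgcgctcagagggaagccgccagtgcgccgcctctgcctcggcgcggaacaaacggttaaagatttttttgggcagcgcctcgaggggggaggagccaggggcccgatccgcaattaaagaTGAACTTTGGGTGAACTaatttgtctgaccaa
Rarg, chr15:102246501-102246750, minus strand: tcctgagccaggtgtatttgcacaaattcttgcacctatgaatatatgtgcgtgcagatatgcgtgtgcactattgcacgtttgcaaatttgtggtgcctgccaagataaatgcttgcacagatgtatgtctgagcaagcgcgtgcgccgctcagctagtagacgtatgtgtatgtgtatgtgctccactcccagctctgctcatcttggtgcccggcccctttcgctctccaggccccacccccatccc
Rara, chr11:98937446-98937695, plus strand: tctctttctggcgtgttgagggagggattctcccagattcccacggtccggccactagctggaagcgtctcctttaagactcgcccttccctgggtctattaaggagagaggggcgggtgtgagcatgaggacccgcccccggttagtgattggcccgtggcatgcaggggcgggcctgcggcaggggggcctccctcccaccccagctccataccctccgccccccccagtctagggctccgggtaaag

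The first question was which receptors the NMPs expressed without RA. RPKM values of the transcripts of a gene were summed, and because RPKM is per length they can be set side by side between genes. With DMSO the order was Rxrb, Rarg, Rxra, Rxrg, Rara and Rarb, and no neighbouring genes overlapped between samples. Rarb, a receptor gene that is itself an RA target, was the lowest at 0.260 and 0.215 RPKM. Rarg made up 73.8% and 76.1% of the summed RAR RPKM, and Rxrb made up 56.8% and 58.0% of the summed RXR RPKM.

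**Figure D1:**
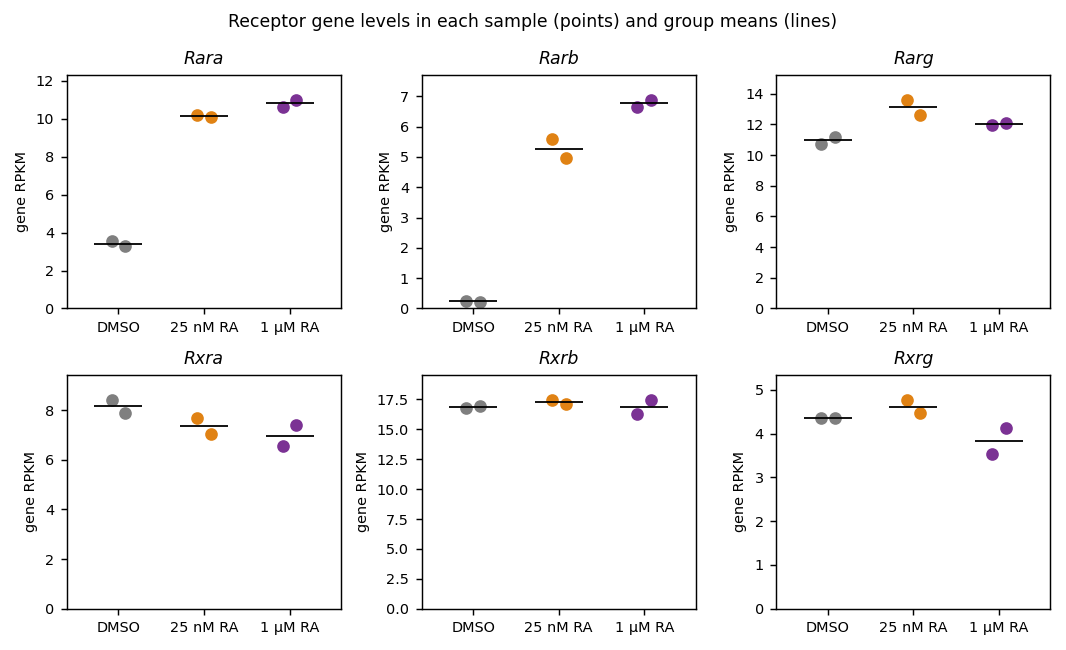
RPKM of each receptor gene (vertical axis, from 0, with a separate scale in each panel) in the DMSO, 25 nM RA and 1 µM RA samples. Points are single samples and lines are means of 2. Rara and Rarb are higher in all 4 RA samples than in both DMSO samples, whereas the Rxrb samples lie between 16.3 and 17.5 RPKM in all conditions.

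Of the 3 RAR genes, 2 were strongly higher after 2 h of RA, and at the gene level no RXR gene rose. Rarb went from 0.260 and 0.215 RPKM with DMSO to 5.59 and 4.97 RPKM at 25 nM and 6.65 and 6.89 RPKM at 1 µM. The 3 groups did not overlap. This was a log2 fold change of 4.53 ± 0.19 (SE) at the lower dose (adjusted p = 7.6e-248) and 4.89 ± 0.19 at the higher dose (adjusted p = 4.3e-314, edgeR likelihood ratio test, Benjamini-Hochberg). Rara, the broadly expressed RAR, was at 3.55 and 3.29 RPKM with DMSO. It was at 10.2 and 10.1 RPKM at 25 nM and at 10.6 and 11.01 RPKM at 1 µM. All RA samples were above both DMSO samples, with log2 fold changes of 1.55 ± 0.07 (adjusted p = 1.0e-117) and 1.64 ± 0.07 (adjusted p = 2.8e-134).

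Rarg differed by far less. It was at 10.7 and 11.2 RPKM with DMSO, 13.6 and 12.6 RPKM at 25 nM and 11.9 and 12.1 RPKM at 1 µM. The RA samples were above the DMSO samples at both doses, by a log2 fold change of 0.26 ± 0.06 at 25 nM RA (adjusted p = 5.2e-04) and 0.12 ± 0.06 at 1 µM RA, where the test was not passed (adjusted p = 0.16). The difference between the doses, -0.13 with a 95% interval from -0.25 to -0.02, did not pass either (adjusted p = 0.30).

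The RXR genes, whose products partner RARs and other nuclear receptors, moved by less than 0.3 on the log2 scale in every comparison. Rxra was at 8.41 and 7.90 RPKM with DMSO, 7.68 and 7.02 RPKM at 25 nM and 6.55 and 7.39 RPKM at 1 µM. Both DMSO samples were above the RA samples, and Rxra fell by 0.24 on the log2 scale at 1 µM RA (SE 0.06, adjusted p = 0.0034). At 25 nM RA its log2 fold change was -0.16 (adjusted p = 0.15). The call at 1 µM RA was lost without DMSO replicate 1 (log2 fold change -0.19, adjusted p = 0.14) and without 1 µM RA replicate 1 (log2 fold change -0.16, adjusted p = 0.14).

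Rxrb was the highest of the 6 genes in every condition, at 16.8 and 16.9 RPKM with DMSO, 17.5 and 17.1 RPKM at 25 nM and 16.3 and 17.4 RPKM at 1 µM. The DMSO and 1 µM RA samples overlapped. Its log2 fold changes were 0.02 (95% interval -0.08 to 0.13) and -0.02 (95% interval -0.13 to 0.08), which leaves room for changes of that size in either direction. Rxrg was at 4.36 and 4.36 RPKM with DMSO, 4.77 and 4.46 RPKM at 25 nM and 3.54 and 4.13 RPKM at 1 µM. Neither dose passed the test against DMSO, with log2 fold changes of 0.08 (95% interval -0.10 to 0.25) and -0.20 (95% interval -0.37 to -0.02).

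Of the 6 genes, 3 were called (adjusted p under 0.1) at 25 nM RA, all of them higher, against 8.05% of the 15143 genes tested. At 1 µM RA 3 were called, 2 higher and Rxra lower, against 19.7% of all genes. Between the 2 doses, 2 were called, against 3.41%. Rarb was higher at the larger dose by 0.36 ± 0.07 (adjusted p = 3.0e-04), and Rxrg was lower by a log2 fold change of -0.27 ± 0.09 (adjusted p = 0.087). For Rara the difference between doses was 0.09 with a 95% interval from -0.02 to 0.20 (adjusted p = 0.53). The Rarb call was lost without 25 nM RA replicate 2 (log2 fold change 0.28, adjusted p = 0.11). The Rxrg call was lost in edgeR's quasi-likelihood test (adjusted p = 0.15) and in DESeq2 (adjusted p = 0.53). It was also lost without any one of the samples other than 1 µM RA replicate 2, with log2 fold changes between -0.31 and -0.18 in those fits.

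**Figure D2:**
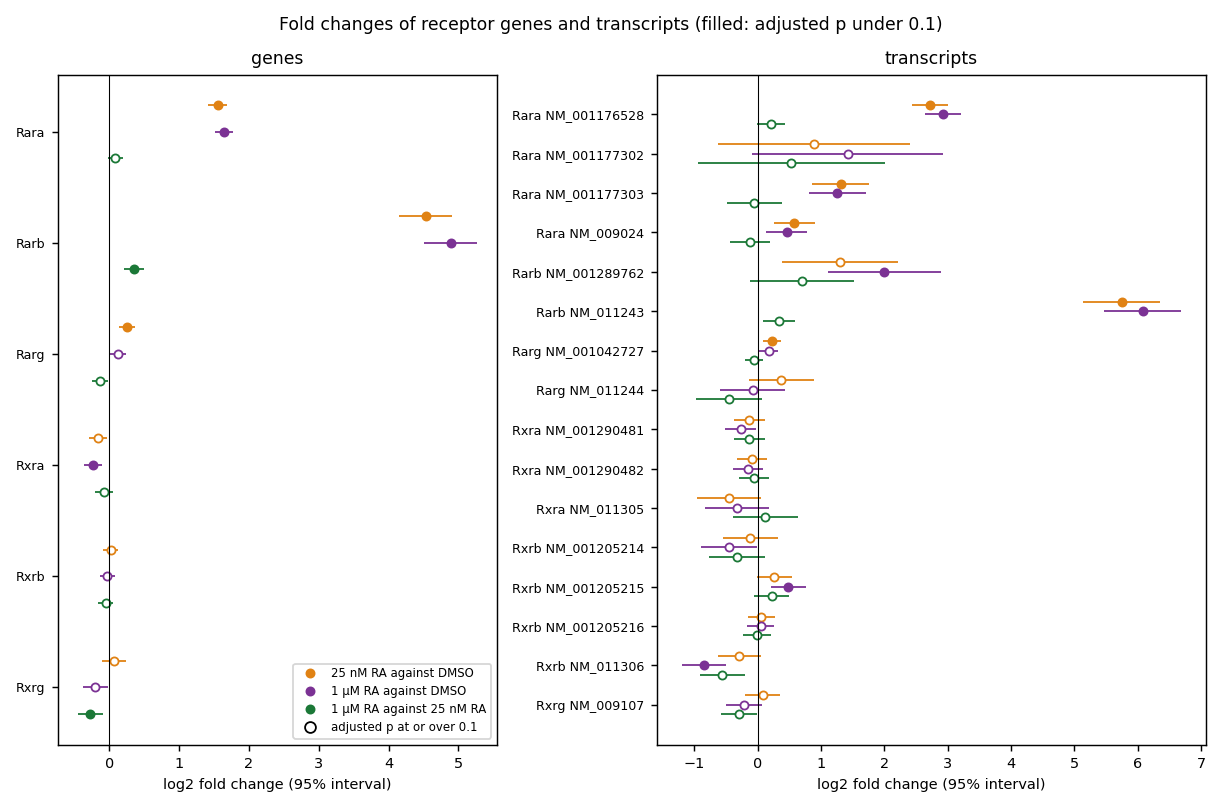
Log2 fold changes (horizontal axis) of the 6 genes and of the 16 transcripts tested, with 95% intervals, for 25 nM RA against DMSO, 1 µM RA against DMSO and 1 µM RA against 25 nM RA. Filled points have an adjusted p under 0.1. The Rarb and Rara genes stand at 1.55 to 4.89 at both doses, and Rarb transcript NM_011243 is the farthest from 0 at 6.08.

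The rise at 25 nM RA was 90.9% of the rise at 1 µM RA for Rara and 77.1% for Rarb on the RPKM scale. For comparison, it was 55.6% for Cyp26a1 and 64.7% for Dhrs3, which encodes a retinaldehyde reductase. These percentages are descriptions of means of 2 samples, and the 3 conditions share their DMSO samples.

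The balance of receptor mRNA between the families shifted with RA, and receptor protein was not measured. Summed RAR RPKM was 14.5 and 14.7 with DMSO, 29.4 and 27.7 at 25 nM and 29.2 and 30.0 at 1 µM. Summed RXR RPKM was 29.6 and 29.2 with DMSO, 29.9 and 28.6 at 25 nM and 26.4 and 28.9 at 1 µM. The RAR sums did not overlap between DMSO and RA samples. The RXR sums overlapped with those of DMSO at 25 nM, and both lay below them at 1 µM. The ratio of RAR to RXR RPKM was 0.498 ± 0.009 (SD, n = 2) with DMSO, 0.976 ± 0.011 at 25 nM and 1.07 ± 0.05 at 1 µM. Of the rise in summed RAR RPKM at 25 nM RA, 48.2% was Rara, 36.2% was Rarb and 15.6% was Rarg. At 1 µM RA these parts were 49.3%, 43.6% and 7.08%. Rarg remained the highest RAR, but its portion of the sum was 40.9% and 40.3% at 1 µM RA. In the order of all 6 genes, Rara moved from the fifth place with DMSO to the third with RA, and Rxra and Rarb overlapped at 1 µM RA.

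**Figure D3:**
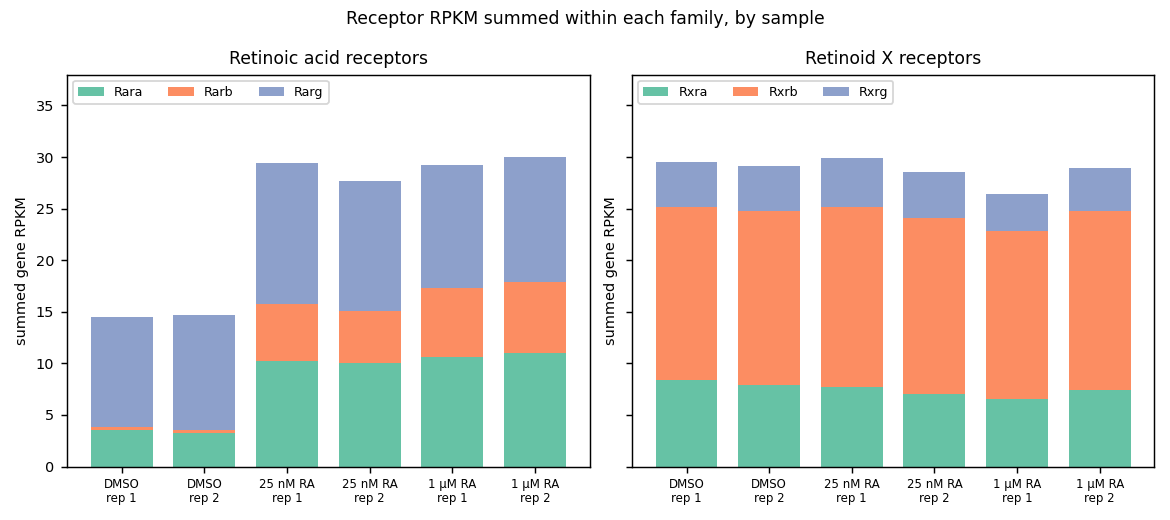
Gene RPKM summed within the RAR family and within the RXR family (vertical axis, stacked by gene) in each of the 6 samples. RAR sums lie at 14.5 and 14.7 with DMSO and between 27.7 and 30.0 with RA, whereas RXR sums lie between 26.4 and 29.9 in all samples.

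It was asked next which transcripts carried the changes. The files held 4 transcripts each of Rara, Rarb and Rxrb, 3 of Rxra, and 2 each of Rarg and Rxrg. Of these 19, 16 passed the filter on low counts, and Rarb NM_001289760 and NM_001289761 and Rxrg NM_001159731 did not. At 25 nM RA 5 of the 16 were called, all higher, against 3.69% of 22074 transcripts. At 1 µM RA 7 were called, 6 higher and 1 lower, against 8.30%. Between the doses 0 of 16 were called, against 1.80% of transcripts, with 3 at an unadjusted p under 0.05 and 0 called by the quasi-likelihood test or DESeq2. The transcripts of a gene share most exons, so that the assignment of reads by expectation-maximization adds error that the SD of 2 dishes shows only in part. No run of 50 bases, the read length, was shared between any 2 of the 6 genes in the GENCODE transcripts matched to these RefSeq transcripts. Rarb had 1 such matched transcript, and runs shared with genes outside the 6 were not looked for.

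Rara has 3 starts in the files, and the transcript from the most 3′ of them, NM_001176528 at chr11:98960471, rose most. Its upstream sequence was not among the windows searched. This start lies 22775 bases inside the gene (chr11:98937696-98974942), in what is an intron of the longer transcripts. The first exon of its matched GENCODE transcript holds 722 bases found in no other matched Rara transcript, and its coding start lies in that exon at 98960965, whereas the other 3 transcripts share a coding start at 98950618. NM_001176528 thus encodes a receptor with a different amino end. It had 0.766 and 0.846 RPKM with DMSO, 5.43 and 5.20 RPKM at 25 nM and 6.14 and 6.14 RPKM at 1 µM. All RA samples were far above the DMSO samples. Its log2 fold changes were 2.72 ± 0.14 (adjusted p = 6.4e-83) and 2.93 ± 0.14 (adjusted p = 2.2e-97), and it made up 67.1% and 72.1% of the rise in Rara RPKM at the lower and higher dose. The libraries were of total RNA, so unspliced RNA of the longer transcripts could also give reads in its first exon. The part of such reads in these values and in the share of this transcript was not tested.

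The other Rara transcripts rose less or did not pass. NM_001177303, from the start at chr11:98939711, was at 0.979 and 0.757 RPKM with DMSO, 2.02 and 2.30 RPKM at 25 nM and 1.87 and 2.31 RPKM at 1 µM. Its groups with and without RA did not overlap, with log2 fold changes of 1.31 ± 0.23 (adjusted p = 2.5e-06) and 1.25 ± 0.23 (adjusted p = 4.7e-06). NM_009024, from the start at chr11:98937696 and the most abundant Rara transcript with DMSO, was at 1.73 and 1.504 RPKM, then 2.36 and 2.48 RPKM at 25 nM and 2.26 and 2.197 RPKM at 1 µM. These are log2 fold changes of 0.57 ± 0.16 (adjusted p = 0.020) and 0.45 ± 0.16 (adjusted p = 0.077). DESeq2 called neither change (adjusted p = 0.24 and 0.32). The quasi-likelihood test called neither (adjusted p = 0.15 and 0.14), and at 25 nM RA the call was also lost without DMSO replicate 2 (adjusted p = 0.39), without 25 nM RA replicate 1 (adjusted p = 0.14) and without 25 nM RA replicate 2 (adjusted p = 0.30). At 1 µM RA it was lost without any single sample, with adjusted p between 0.14 and 0.54. NM_001177302, which starts at chr11:98937718, had between 0.0777 and 0.396 RPKM, and its groups overlapped at 25 nM RA.

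**Figure D4:**
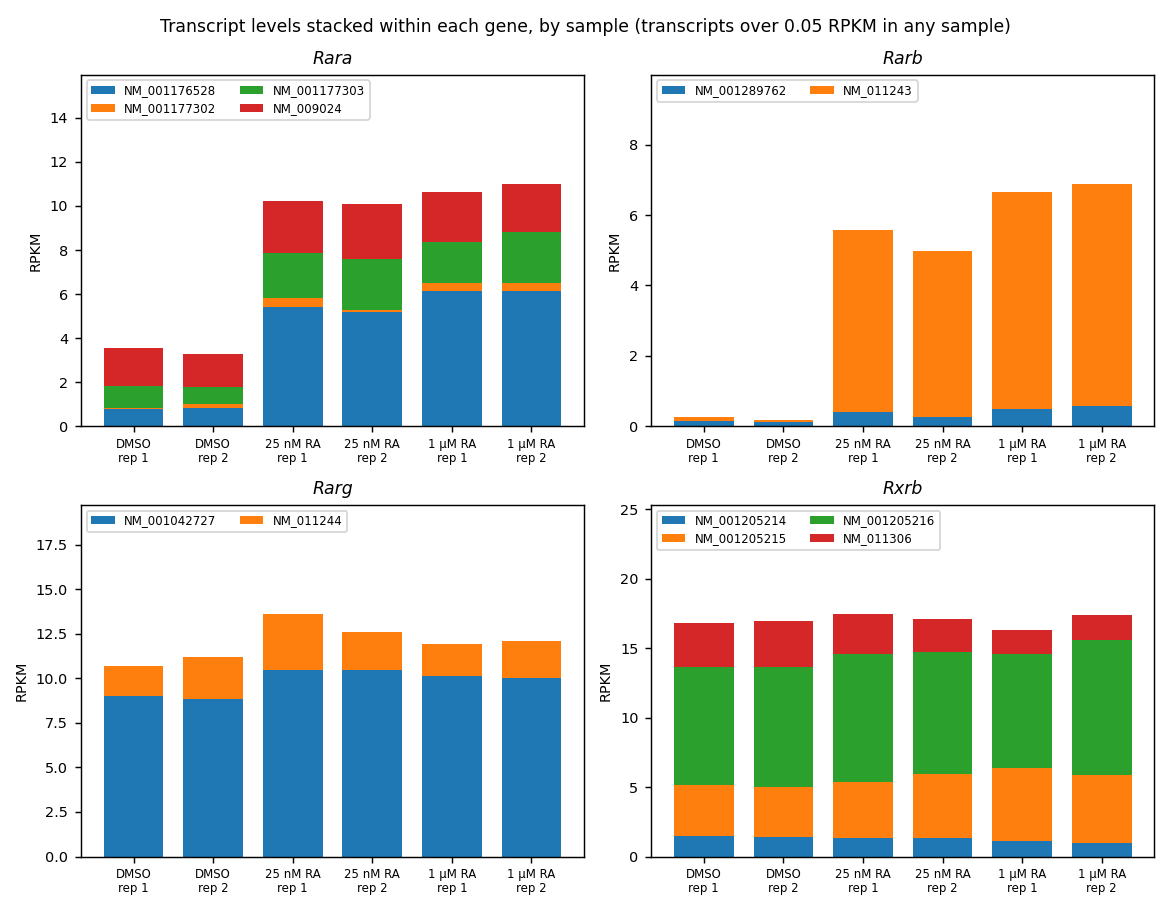
Transcript RPKM (vertical axis) stacked within Rara, Rarb, Rarg and Rxrb for each of the 6 samples, for transcripts over 0.05 RPKM in any sample. The Rara bars grow mainly by NM_001176528 and the Rarb bars by NM_011243, while in Rxrb the portions from NM_011306 shrink and the total stays between 16.3 and 17.5.

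The Rara transcripts therefore did not rise by the same factor, and this was tested directly as each transcript's log2 fold change minus that of its gene. NM_001176528 was 21.6% and 25.7% of Rara RPKM with DMSO, 53.2% and 51.6% at 25 nM and 57.9% and 55.7% at 1 µM. It rose more than the gene by 1.17 (adjusted p = 8.3e-13) and 1.28 (adjusted p = 2.9e-16) on the log2 scale, and the quasi-likelihood form of the test kept both calls (adjusted p = 0.022 and 0.020). NM_009024 was 48.7% and 45.7% of Rara RPKM with DMSO, 23.1% and 24.6% at 25 nM and 21.3% and 20.0% at 1 µM, a relative log2 change of -0.98 (adjusted p = 3.2e-06) and -1.19 (adjusted p = 3.4e-09). The quasi-likelihood form kept this only at 1 µM RA (adjusted p = 0.23 and 0.098). Thus the share of NM_009024 fell while its own level did not fall.

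**Figure D5:**
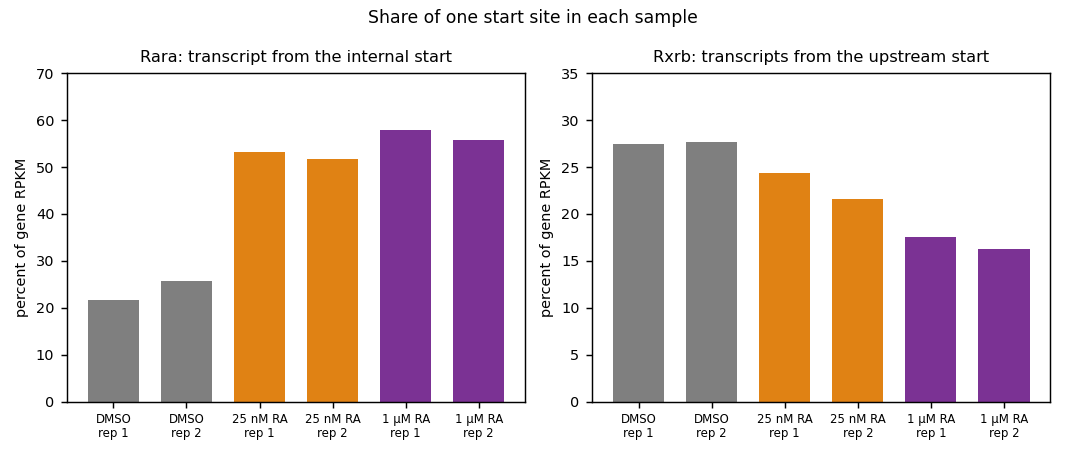
Percent of gene RPKM (vertical axis, from 0) from the internal Rara start and from the upstream Rxrb start in each sample. The Rara share is 21.6% and 25.7% with DMSO and between 51.6% and 57.9% with RA, and the Rxrb share declines from 27.5% and 27.7% with DMSO to 17.6% and 16.3% at 1 µM.

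Rarb (chr14:16430840-17082331, minus strand) was represented mainly by transcripts from the start at chr14:16575476, the one downstream of the DR5 shown above. They made up at least 99.998% of Rarb RPKM in the RA samples and DMSO replicate 1, and 83.5% in DMSO replicate 2. NM_011243 had 17.4 and 8.73 estimated counts with DMSO, 605 and 693 at 25 nM and 812 and 843 at 1 µM, or 0.111 and 0.0679, 5.17 and 4.72, and 6.16 and 6.31 RPKM. The 3 groups did not overlap in RPKM. Its log2 fold changes were 5.74 ± 0.31 (adjusted p = 3.6e-150) and 6.08 ± 0.31 (adjusted p = 1.4e-173), and it made up 96.3% and 94.0% of the rise in Rarb RPKM. NM_001289762, a shorter transcript from the same start, had 20.6 and 12.6 counts with DMSO, 42.9 and 32.5 at 25 nM and 57.7 and 69.4 at 1 µM. It rose at 1 µM RA by 2.00 ± 0.46 (adjusted p = 4.8e-04) and had a log2 fold change of 1.30 ± 0.47 at 25 nM RA (adjusted p = 0.13). The distal start at chr14:17082331 was barely represented, since its 2 transcripts together had 0.0353 RPKM in DMSO replicate 2 and at most 0.00011 RPKM in every other sample.

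Within Rarb, NM_011243 was 42.8% and 31.7% of the RPKM with DMSO and at least 91.5% in each RA sample. Its share increased by 1.10 (adjusted p = 0.013) and 1.08 (adjusted p = 0.012) relative to the gene, and that of NM_001289762 changed by -3.34 (adjusted p = 3.0e-08) and -3.00 (adjusted p = 5.5e-07). These shares rest on fewer than 21 DMSO counts per transcript. The quasi-likelihood form kept NM_001289762 (adjusted p = 0.078 and 0.098) and lost NM_011243 (adjusted p = 0.32 and 0.26), which was also lost at 25 nM RA without DMSO replicate 1 (adjusted p = 0.16) or DMSO replicate 2 (adjusted p = 0.11) and at 1 µM RA without DMSO replicate 1 (adjusted p = 0.16).

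Most Rarg RPKM came from NM_001042727, whose start is at chr15:102246500 and whose first exon, of 441 bases, is its own. It had 8.99 and 8.84 RPKM with DMSO, 10.5 and 10.5 RPKM at 25 nM and 10.1 and 10.02 RPKM at 1 µM. The RA samples were above both DMSO samples, with log2 fold changes of 0.23 ± 0.07 at 25 nM RA (adjusted p = 0.066) and 0.17 ± 0.07 at 1 µM RA (adjusted p = 0.19). DESeq2 did not call NM_001042727 at 25 nM RA (adjusted p = 0.60). The call at 25 nM RA was lost in the quasi-likelihood test (adjusted p = 0.17) and without any one of the DMSO or 25 nM RA samples (adjusted p between 0.36 and 0.50). NM_011244, from the start at chr15:102257522, had between 1.73 and 3.14 RPKM and its groups overlapped.

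In Rxrb (chr17:34031812-34038403), whose gene total passed no test, transcripts moved in opposite directions at 1 µM RA. The gene has starts at 34031812 and, 538 bases downstream, at 34032350, with a pair of transcripts from each that differ by 12 bases in length. The upstream transcripts have their coding start in the first exon at 34031998 and the downstream ones at 34032931. Of the matched GENCODE transcripts, that of NM_011306 holds 2 bases found in no other matched Rxrb transcript and that of NM_001205216 holds 0. Levels within a pair therefore rest on few reads of their own. As for Rara, the part of reads from unspliced RNA in the Rxrb values was not tested. NM_011306, from the upstream start, was at 3.15 and 3.25 RPKM with DMSO, 2.89 and 2.38 RPKM at 25 nM and 1.72 and 1.85 RPKM at 1 µM. The 3 groups did not overlap, and it fell by 0.85 on the log2 scale at 1 µM RA (SE 0.18, adjusted p = 9.4e-05). NM_001205214, its partner at that start, was at 1.46 and 1.43 RPKM with DMSO and 1.14 and 0.988 RPKM at 1 µM, and did not pass (log2 fold change -0.45, adjusted p = 0.28).

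From the downstream start, NM_001205215 was at 3.66 and 3.54 RPKM with DMSO, 4.04 and 4.61 RPKM at 25 nM and 5.22 and 4.91 RPKM at 1 µM. It rose by 0.48 ± 0.14 at 1 µM RA (adjusted p = 0.015). This call was lost in DESeq2 (adjusted p = 0.12) and without DMSO replicate 1 (adjusted p = 0.16), DMSO replicate 2 (adjusted p = 0.23) or 1 µM RA replicate 1 (adjusted p = 0.20). NM_001205216, the most abundant Rxrb transcript, was between 8.21 and 9.67 RPKM, and its groups overlapped.

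The transcript shares called as changed numbered 4 of 15 members at 25 nM RA, against 1.99% of 11058 transcripts, and all 4 were of Rara and Rarb. At 1 µM RA there were 6, against 2.94%, with Rxrb NM_011306 (relative log2 change -0.82, adjusted p = 8.0e-04) and NM_001205215 (0.51, adjusted p = 0.025) in addition. The quasi-likelihood form lost both Rxrb calls (adjusted p = 0.11 and 0.39), and that of NM_001205215 was also lost without DMSO replicate 1 (adjusted p = 0.15), DMSO replicate 2 (adjusted p = 0.27) or 1 µM RA replicate 1 (adjusted p = 0.30). Between doses 0 of 15 were called, against 2.11%, with 1 at an unadjusted p under 0.05 and 0 by the quasi-likelihood form.

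Because members of each Rxrb pair differ so little, counts were also summed over the transcripts of one start (starts within 100 bases of each other). This was chosen after the values had been seen. The upstream Rxrb start was then at 4.61 and 4.68 RPKM with DMSO, 4.25 and 3.69 RPKM at 25 nM and 2.86 and 2.84 RPKM at 1 µM. Its log2 fold change was -0.24 ± 0.11 at 25 nM RA (adjusted p = 0.33), and it fell by 0.71 at 1 µM RA (SE 0.11, adjusted p = 2.3e-08). The downstream start was at 12.2 and 12.2 RPKM with DMSO and 13.4 and 14.6 RPKM at 1 µM, a log2 fold change of 0.19 ± 0.06 (adjusted p = 0.031). The quasi-likelihood test kept both calls (adjusted p = 0.0053 and 0.079), and DESeq2 kept the upstream one (adjusted p = 2.0e-04) and lost the downstream one (adjusted p = 0.26). The downstream call was also lost without DMSO replicate 1 (adjusted p = 0.26), DMSO replicate 2 (adjusted p = 0.17) or 1 µM RA replicate 2 (adjusted p = 0.23). The upstream share of Rxrb RPKM was 27.5% and 27.7% with DMSO, 24.3% and 21.6% at 25 nM and 17.6% and 16.3% at 1 µM. Its relative log2 change was -0.69 at 1 µM RA (adjusted p = 3.1e-07) and -0.43 between the doses (adjusted p = 0.012). The quasi-likelihood form kept the first (adjusted p = 0.074) and not the second (adjusted p = 0.49).

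By start, 5 of 12 member starts were called at 25 nM RA (5.42% of 17020 starts), 8 at 1 µM RA (13.4%) and 2 between the doses (2.56%). The 5 were the 3 Rara starts, the Rarb start and the Rarg start at 102246500. At 1 µM RA the 2 Rxrb starts were called in addition, as was the Rxra start at chr2:27709292, where the log2 fold change was -0.27 ± 0.11 (adjusted p = 0.090). The Rxra call was lost in the quasi-likelihood test (adjusted p = 0.16) and in DESeq2 (adjusted p = 0.29), and without DMSO replicate 1 (adjusted p = 0.34), DMSO replicate 2 (adjusted p = 0.38) or 1 µM RA replicate 1 (adjusted p = 0.53). The Rarg start was called at both doses at this level, with log2 fold changes of 0.23 ± 0.06 (adjusted p = 0.0067) and 0.17 ± 0.06 (adjusted p = 0.055). It holds NM_001042727 alone, which the transcript fit did not call at 1 µM RA. The quasi-likelihood test kept both Rarg calls (adjusted p = 0.061 and 0.080) and DESeq2 lost both (adjusted p = 0.33 and 0.40). At 25 nM RA the call was lost without any one of the 4 samples compared (adjusted p between 0.11 and 0.19), and at 1 µM RA without any one sample other than 1 µM RA replicate 2 (adjusted p between 0.10 and 0.30). Between the doses, the quasi-likelihood test and DESeq2 called neither the Rarb start (adjusted p = 0.30 and 0.51) nor the upstream Rxrb start (adjusted p = 0.20 and 0.20). Changed shares were called for 2 of 10 starts at 25 nM RA (4.91% of 3444 starts), 4 at 1 µM RA (8.25%) and 1 between the doses (5.11%). The internal Rara start kept its call in the quasi-likelihood form (adjusted p = 0.0036 and 0.0011).

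The 3 Rxra transcripts, from starts at chr2:27677201, chr2:27709292 and chr2:27710583, had log2 fold changes between -0.46 and -0.09 at 25 nM RA and between -0.34 and -0.15 at 1 µM RA, and none was called at the transcript level. NM_001290481 was the most abundant, at 4.17 and 4.16 RPKM with DMSO, 4.10 and 3.52 RPKM at 25 nM and 3.19 and 3.76 RPKM at 1 µM. Both DMSO samples were above the 4 RA samples. Rxrg was represented by NM_009107 (chr1:167598362-167639623), which made up at least 97.1% of Rxrg RPKM in each sample.

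The rest of the RA pathway was set beside the receptors, as 57 genes in 7 lists, of which 47 passed the filter on low counts. The lower dose had 17 that rose and 3 that fell, the higher dose 18 and 11, and between the doses 7 were higher and 4 lower at 1 µM RA, of which the quasi-likelihood test kept 5 and 2. Over all 15143 genes 681 rose and 538 fell at 25 nM, 1293 rose and 1690 fell at 1 µM, and 120 were higher and 396 lower between the doses. Lists with 1 call among 7 or 8 genes at 25 nM lie near the 8.05% called over all genes. Of the 3 RA-degrading Cyp26 genes, 2 rose at the lower dose and all 3 at the higher. The median log2 change of that list at 1 µM RA was 2.40, against 0.0013 over all genes tested. Cyp26a1 was at 52.6 and 52.3 RPKM with DMSO, 178 and 178 RPKM at 25 nM and 283 and 272 RPKM at 1 µM. Its groups did not overlap, and its log2 fold changes were 1.76 ± 0.05 and 2.40 ± 0.05 (quasi-likelihood adjusted p = 1.1e-14 and 1.7e-16), with a difference between doses of 0.64 ± 0.05 (adjusted p = 3.4e-35). Cyp26c1, another RA hydroxylase, rose by 1.37 ± 0.22 (adjusted p = 1.3e-08) and 1.69 ± 0.22 (adjusted p = 1.5e-14).

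Of the 7 RA synthesis genes tested, Dhrs3 and Lrat rose and Rdh10 fell at each dose. Dhrs3 returns retinaldehyde to retinol, and Lrat esterifies retinol for storage. The Lrat calls were lost in the quasi-likelihood test (adjusted p = 0.20 and 0.19). Dhrs3 was at 0.576 and 0.361 RPKM with DMSO, 13.6 and 13.3 RPKM at 25 nM and 20.8 and 20.2 RPKM at 1 µM, with log2 fold changes of 4.91 ± 0.19 and 5.57 ± 0.19 (quasi-likelihood adjusted p = 7.7e-15 and 2.4e-16). Rdh10, which oxidizes retinol to retinaldehyde, was at 10.1 and 9.76 RPKM with DMSO and 7.18 and 7.17 RPKM at 1 µM, and fell by 0.48 (SE 0.07, adjusted p = 1.3e-11). Among 6 genes of RA binding and uptake, 3 rose at each dose, Crabp2 and Stra6 among them, and none fell by the likelihood ratio or the quasi-likelihood test. Stra6, a receptor for retinol-binding protein, rose by 1.42 ± 0.19 at 1 µM RA (adjusted p = 6.8e-13).

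The cofactors that RARs recruit moved by less than Rara and Rarb, and Nrip1 came closest to Rara. Of 8 corepressor genes, Nrip1 rose at each dose, and 2 fell at 1 µM RA, Sin3a among them. Nrip1, whose product binds nuclear receptors that carry ligand, was at 2.76 and 2.56 RPKM with DMSO, 7.03 and 7.08 RPKM at 25 nM and 8.11 and 7.93 RPKM at 1 µM. Its log2 fold changes were 1.40 ± 0.07 (adjusted p = 1.0e-96) and 1.58 ± 0.07 (adjusted p = 2.5e-127).

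Of 8 coactivator genes, Ncoa3 rose at each dose, Crebbp fell at 25 nM RA, and Crebbp, Ep300, Carm1 and Ncoa2 fell at 1 µM RA. The list median at 1 µM RA was -0.19. Crebbp, a histone acetyltransferase, was at 7.62 and 7.49 RPKM with DMSO, 6.47 and 6.62 RPKM at 25 nM and 5.12 and 5.22 RPKM at 1 µM. The 3 groups did not overlap, and the log2 fold changes were -0.21 ± 0.05 (adjusted p = 0.0017) and -0.55 ± 0.05 (adjusted p = 2.9e-23), with -0.34 ± 0.05 between doses (adjusted p = 2.1e-07). Ep300, its paralog, had a log2 fold change of -0.16 at 25 nM RA (adjusted p = 0.11) and fell by 0.44 at 1 µM RA (adjusted p = 8.0e-11).

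Of the 7 other RXR partners tested, which are nuclear receptors that can share RXR with the RARs, none rose at either dose by the likelihood ratio or the quasi-likelihood test. At 25 nM RA Nr4a1 fell, and at 1 µM RA Nr1h2, Nr4a1, Nr4a2 and Ppard fell, Ppard not in the quasi-likelihood test (adjusted p = 0.10). Nr4a1 was at 3.26 and 3.15 RPKM with DMSO, 2.205 and 2.32 RPKM at 25 nM and 2.10 and 1.73 RPKM at 1 µM. Its log2 fold changes were -0.50 ± 0.10 (adjusted p = 4.3e-05) and -0.75 ± 0.11 (adjusted p = 6.8e-11). Nr4a2, of the same family, was between 0.162 and 0.331 RPKM and fell by 0.88 at 1 µM RA (adjusted p = 0.0064).

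All 8 tested genes of a list of known direct RA targets rose at each dose, with list medians of 2.03 and 2.29. The list was drawn from known targets with earlier results of these data in view, so that its direction is not independent evidence. Meis2, a homeobox gene, was at 0.852 and 0.896 RPKM with DMSO, 4.74 and 5.17 RPKM at 25 nM and 6.86 and 6.36 RPKM at 1 µM. The 3 groups did not overlap, and its log2 fold changes were 2.49 ± 0.10 (adjusted p = 1.0e-159) and 2.89 ± 0.10 (adjusted p = 3.0e-228). Between doses 3 genes of this list were higher at 1 µM RA, Meis2 and Stra8 among them.

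The genes most like the called receptor genes over the 6 samples were found by the Euclidean distance between centred log2 CPM, with no test. For Rara the nearest were B3gnt7 (distance 0.13), Nt5e (0.15) and the corepressor Nrip1 (0.17). B3gnt7 had log2 fold changes of 1.46 and 1.56, and Nt5e of 1.44 and 1.56. For Rarb the nearest were Dhrs3 (0.73), Zfp503 (0.80) and Lrrc10b (1.05), all at larger distances. Zfp503 had log2 fold changes of 3.80 and 4.33, and Lrrc10b of 3.66 and 4.69. Distances were smaller for the receptor genes that changed less. The profiles were not scaled, so this follows from the measure and says nothing of a closer likeness. For Rarg the nearest were Ptp4a3 (0.06), Mul1 (0.08) and Kif13b (0.09), and for Rxra they were Ly6e (0.04), Srf (0.07) and Adamts8 (0.07).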

How the data were processed

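The 6 NMP samples were grouped, 2 per condition, by their labels. The authors sequenced stranded, ribosomal RNA-depleted total RNA as single reads of 50 bases, aligned them with TopHat to mm10 and estimated RefSeq transcript abundance by expectation-maximization. The submitters' processing notes name FastQC 0.11, TopHat2 2.0.13, Bowtie2 2.2.5.0 and Partek 6.6, and the strand setting of the counting is not given in the sources used here. The estimated counts were deposited by the authors without normalization, and between 50.4% and 51.1% of them in each sample are fractional. RPKM, which the authors computed for every transcript, was summed per gene here for levels and shares only.

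Estimated counts, rounded, were fitted in edgeR 4.0.16 (R 4.3.3) with TMM and filterByExpr over all 6 samples, for genes (summed) and for transcripts. The likelihood ratio test, named in the methods, was used with Benjamini-Hochberg adjustment over all features tested and a threshold of 0.1. Shares were tested with edgeR's differential transcript usage likelihood ratio test, as a transcript's log2 fold change minus that of its gene. The 95% intervals come from the standard errors of the fit and cover dish-to-dish error. With 2 samples per group an exact permutation test cannot give p below 0.333, so none was run. The steps were tested on simulated data. Alternatives were the quasi-likelihood test, DESeq2 1.42.0, other scalings, filters and thresholds, a fit of just the compared samples, a block for replicate number and each sample left out. The members, gene lists and tests were chosen with earlier results of these data known. All 6 members and their transcripts are named, with the 2 genes of smallest adjusted p at 1 µM RA in each list, the 3 nearest genes of each called receptor gene, and other list genes only where they make up a count of at most 5. Results for some genes that this rule names are left out here. Exons came from GENCODE vM21 and upstream sequences from RefSeq (GRCm38.p6, the same primary assembly as mm10).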

Additional observations from a re-analysis of the deposited data

How the results depend on the processing

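Counts of called members changed with the test and with single samples. The count of genes called between the doses, 2, was 1 in the quasi-likelihood test, DESeq2, without a filter on low counts, with only the 4 samples compared and at an adjusted p under 0.05, and 0 to 2 when 1 sample was left out. The 5 transcripts called at 25 nM RA were 3 in the quasi-likelihood test and in DESeq2, 3 under the fold and RPKM thresholds of the study, and 3 to 5 when 1 sample was left out. The 7 called at 1 µM RA were 3 under those thresholds. The 0 transcripts called between the doses became 1 with total counts in place of TMM and with a filter of 1 CPM in 2 samples, and 0 to 1 when 1 sample was left out. The 4 and 6 changed shares at 25 nM and 1 µM RA were 2 and 3 in the quasi-likelihood form, and the 0 between the doses was 0 to 1 when 1 sample was left out. Of 1158 further comparisons of single values with their alternatives, 1084 kept their direction and side of the threshold, 51 lost and 12 gained a call, and 11 changed sign, all of the latter when 1 sample was left out and none of them a called value. These were Rxrb at 1 µM RA (-0.063 to 0.012), NM_001177302 at 25 nM RA (-0.49 to 1.61) and between doses (-0.18 to 1.92), NM_001205216 at 1 µM RA (-0.067 to 0.16) and between doses (-0.13 to 0.10), NM_011244 at 1 µM RA (-0.29 to 0.16), NM_001177303 between doses (-0.21 to 0.086) and NM_011305 between doses (-0.19 to 0.37). The causes were not tested.

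The replicate numbers name dishes and gave no sign of pairing, with correlations of same-numbered deviations between -0.059 and 0.049. With the replicate number as a block, 3, 3 and 1 genes, 4, 6 and 0 transcripts, and 4, 6 and 0 changed shares were called at 25 nM RA, at 1 µM RA and between doses. Among genes and transcripts, the calls lost under the block were those of Rxrg between doses (adjusted p = 0.12), NM_001042727 at 25 nM RA (0.17) and NM_009024 at 1 µM RA (0.15). Among starts they were those of Rarg at 102246500 (0.12) and Rxra at 27709292 (0.15), both at 1 µM RA. Rarb DMSO levels rest on few reads, which limits the precision of its fold changes, and reads shared by transcripts limit every transcript level.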
